A study of Mus musculus with 12 samples.

Results

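The genes described here encode the eukaryotic translation factors, the proteins that start, extend and end the synthesis of a polypeptide on the ribosome. They were chosen by gene symbol, as every gene row whose name begins with Eif1 to Eif6, Eef1 or Eef2, or Gspt, or equals Etf1. This gave 64 genes of 20985 gene rows. They were classed by the role of the encoded protein into 51 of initiation, 10 of elongation and 3 of termination. Each class includes regulators or relatives of the factors themselves. All 64 are annotated as protein coding.

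In initiation, eIF2 brings the initiator tRNA to the small ribosomal subunit, eIF3 is the large scaffold that holds the subunit and the other factors, and the eIF4 factors recruit the capped end of a messenger RNA (mRNA). In elongation, eEF1A delivers aminoacyl-tRNA, the eEF1B complex recharges eEF1A with GTP, and eEF2 moves the ribosome along by a codon. In termination, eRF1 (gene Etf1) reads the stop codon and works with the GTPase eRF3 (genes Gspt1 and Gspt2). Kinases of the Eif2ak family phosphorylate eIF2 under stress and thereby lower initiation in general, the core step of the integrated stress response. Many mRNAs of the translation apparatus, above all those of ribosomal proteins and several elongation factors, begin with a 5' terminal oligopyrimidine (TOP) tract, through which their translation is regulated together.

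The RNA came from testes of Mael-/- mice of strain C57BL/6 and 3 months of age, and this genotype, strain and age were common to the 4 groups. Mael is needed for silencing of retrotransposons by small RNAs in male germ cells, and in its absence LINE-1 (L1) elements are expressed in spermatocytes. TOTAL was the RNA of the clarified extract after addition of 10 mM EDTA, which takes ribosomes apart, and INPUT was the RNA of sucrose gradient fractions 5 to 8 of that extract. IP was the RNA brought down from INPUT with an antibody to ORF1p, the RNA-binding protein of L1, and BO (beads only) was the RNA held by beads that carried no antibody. Each group had 3 libraries, 12 in all, and nothing in the labels says that these came from separate animals. There was no group with intact Mael, so no value here measures the effect of the mutation. The gene tables give 1 mean of normalized counts per group and no value per library. Every gene level below is the authors' mean, without an SD, and the depth behind it is unknown. The tables also hold the authors' own fold changes with errors and p-values, which were not used here, so the ratios below carry no test and no error.

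The labels were checked first. The authors' mean for Mael itself was 0.65 in TOTAL, 0.00 in INPUT, 0.50 in BO and 0.00 in IP, close to no reads in any group. The normalized count of the young L1 subfamily L1Md_A lay between 56029 and 95645 in the 3 IP libraries, and between 14131 and 27258 in the other 9, without overlap. Reads on repeat subfamilies, recovered from the normalized counts, numbered 1384904 to 2003194 per library in IP, 1712212 to 3512997 in BO, 3045170 to 3880642 in INPUT and 6021801 to 7282171 in TOTAL. BO replicate 3 stood apart, with 52.1% of its repeat signal in large subunit rRNA against 1.94% to 15.9% in the other 11 libraries. Its weight in the BO mean of a gene cannot be taken out. The summed means of 5 spermatocyte markers (Sycp1, Sycp3, Hormad1, Piwil1, Spo11) were 18542.7 in TOTAL, 18533.2 in INPUT, 7350.7 in BO and 120260.1 in IP, and all 5 were above a log2 ratio of 1 in each of the 3 comparisons with IP. In contrast, the sums over 5 Leydig cell markers were 77573.1 in TOTAL and 15225.6 in IP and those over 5 Sertoli cell markers were 19584.4 and 5052.9. In BO these sums were 5666.3 and 8848.8. Against BO, 2 of the 5 Leydig cell markers were higher in IP and 0 lower, and 0 were higher relative to the median gene. Of the Sertoli cell markers, 0 were higher than in BO and 3 lower. The sums over 5 spermatogonia markers were 5599.2 in TOTAL and 3355.0 in IP. Against TOTAL, 1 of the 5, Dmrt1, was below a log2 ratio of -1 and the others lay between -0.45 and 0.24. Spermatid markers were near 0, with a sum of 116.4 in TOTAL and 3.04 in IP. The markers of spermatocytes thus moved with the pull-down, and their part in the values of the translation factors was not tested. For the levels in TOTAL, as in any bulk sample, fewer cells of a type and less RNA per cell cannot be told apart. The other 3 groups were drawn from the same kind of extract.

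For each gene, the value reported is the log2 of (IP mean + 1) over (BO, INPUT or TOTAL mean + 1), with both means from 1 table, and a gene counts as higher or lower in IP when this log2 ratio is above 1 or below -1. Genes needed a mean of at least 10 over the compared groups, which 62 of the 64 met in each of the 3 comparisons. The other 2 were hardly detected. Eef1a2, the isoform of eEF1A typical of muscle and neurons, had a mean of 1.72 in TOTAL and 1.40 in IP, and Eif4e1b, a cap-binding protein best known from oocytes, had 5.99 and 3.49. The 3 comparisons share the IP libraries and are not independent of each other. Levels of different groups come from tables that were normalized separately, and IP levels are those of the table with TOTAL unless stated.

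Several factors are encoded by pairs of paralogs, and the contrasts between them carry much of what follows, so their sequences are shown first. Eif4a1 (chr11:69666936-69672423, minus strand) and Eif4a2 (chr16:23107444-23114136, plus strand) encode the RNA helicase eIF4A. Eif2s3x (chrX:94188707-94212862, minus strand) and Eif2s3y (chrY:1010543-1028847, plus strand) encode the gamma subunit of eIF2. Gspt1 (chr16:11219292-11254325, minus strand) and Gspt2 (chrX:94636069-94643244, plus strand) encode eRF3. Positions are in GRCm38 (mm10), and the sequences are coding sequence from the GENCODE M21 transcripts. Each window is 75 nt long, the length of 1 sequencing read, and was taken where the number of differences equals the median over all windows of the pair. Capitals mark the bases at which a gene differs from its paralog.
Eif4a1, coding bases 46 to 120: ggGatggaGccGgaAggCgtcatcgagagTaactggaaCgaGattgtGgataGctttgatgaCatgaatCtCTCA
Eif4a2, coding bases 52 to 126: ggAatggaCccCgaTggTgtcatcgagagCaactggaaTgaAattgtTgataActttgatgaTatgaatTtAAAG
Eif2s3x, coding bases 19 to 93: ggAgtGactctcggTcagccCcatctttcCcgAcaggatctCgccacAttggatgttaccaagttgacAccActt
Eif2s3y, coding bases 19 to 93: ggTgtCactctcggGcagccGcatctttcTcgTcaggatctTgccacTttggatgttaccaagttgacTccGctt
Gspt1, coding bases 412 to 486: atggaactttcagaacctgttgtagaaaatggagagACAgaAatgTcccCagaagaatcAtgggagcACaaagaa
Gspt2, coding bases 406 to 480: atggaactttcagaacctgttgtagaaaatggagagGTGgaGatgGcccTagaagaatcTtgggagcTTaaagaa

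The coding sequences were 78.0% identical for Eif4a1 and Eif4a2, 86.3% for Eif2s3x and Eif2s3y, and 83.9% for Gspt1 and Gspt2. The median window held 16, 10 and 9 differences, respectively, and the least different window 8, 5 and 3. In the other pairs compared, the identity was 72.8% for Eif5a and Eif5a2, 85.6% for Eif1a and Eif1ax, 81.1% for Eif1 and Eif1b, 55.2% for Eif4e and Eif4e2 and 80.1% for Eef1a1 and Eef1a2. Identity was counted over aligned bases only, and the coding sequence taken was 762 nt for Eif1a and 432 nt for Eif1ax. None of the 8 pairs shared an identical 75 nt stretch of coding sequence. Sequence shared with other annotated genes was more common. For 10 of the 64 genes, more than 10% of their 75 nt stretches also occur in another annotated gene, and for 39 genes none do. These shares were 64.2% for Eif4ebp3, 62.9% for Eif4a1, 56.5% for Eef1g, 41.7% for Eef1a1, 35.7% for Eif2s3x, 25.6% for Eif1, 22.4% for Eif2s2, 21.3% for Eif3m, 16.7% for Eif3h and 13.0% for Eif4a3. The counts of these 10 genes are uncertain to the extent that reads were divided between copies.

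Levels within the extract were compared per length. Per kilobase of the longest annotated transcript, the TOTAL mean was highest for Eef1a1 (24411.5), followed by Eef2 (7050.7), Eif5a (3587.0), Eif4g2 (3089.3) and Eif4a1 (2563.7). Eef1a1, Eef2 and Eif5a belong to elongation, and the other 7 genes of that class ranked between 16 (Eef1g) and 64 (Eef1a2). In IP, the order per kilobase was Eef1a1 (16272.2), Eef2 (11950.6), Eif4a2 (6064.0), Eif4g2 (4462.4) and Eif3c (4121.3). Eif4a1 was in 5th place in TOTAL and in 17th place in IP, whereas Eif4enif1, which encodes the eIF4E transporter 4E-T, moved from 41st to 14th place. These places depend on the transcript chosen. The longest is 3167 nt for Eif4a1 and 4123 nt for Eif3e, whose longest protein coding transcripts are 1774 and 1506 nt. Places by coding transcript were not computed. Without a spread between libraries, neighbours in these orders cannot be ranked beyond their means.

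The comparison of IP with BO asks which mRNAs were brought down by the antibody beyond those that stick to beads. Of the 62 translation factor genes, 46 were higher in IP and 2 were lower. Among all 13638 genes compared, 43.9% were higher and 11.2% lower. The median log2 ratio was 1.74 for the translation factors and 0.81 for all genes, and 49 of 62 lay above the median gene. Because the median gene itself was above 0 in this comparison, the values were also read relative to it. On that scale, 29 of the 46 stayed higher and 5 genes were lower, beside 18.4% and 24.1% of all genes. The 17 that no longer passed were Eef1d, Eef1e1, Eif1ad, Eif1b, Eif2ak1, Eif2b4, Eif2d, Eif3a, Eif4a1, Eif4a2, Eif4a3, Eif4b, Eif4e, Eif4ebp3, Eif4enif1, Eif4g2 and Eif5b, and below they are called higher than in BO only as deposited. The group medians were 1.74 for initiation, 2.28 for elongation and 0.62 for termination.

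Eif2b1, the alpha subunit of eIF2B, the exchange factor that recharges eIF2 with GTP, had the highest ratio to BO. In the table of this comparison its mean was 1318.2 in IP and 108.2 in BO, a log2 ratio of 3.59, which was 2.78 above the median gene. It was followed by Eif2s1, the alpha subunit of eIF2 that the stress kinases phosphorylate (2.97), by the helicase cofactor Eif4h (2.97), by Eef1a1 (2.97, from 22381.5 in IP and 2865.2 in BO) and by Eif2s2, the beta subunit of eIF2 (2.91). At the other end were Eif4e3, a cap-binding protein of the eIF4E family, with 43.8 in IP and 161.3 in BO (-1.86), and Eif2ak2, the double-stranded RNA-activated kinase PKR, with 289.1 and 985.7 (-1.77). Next to these came Gspt2 (-0.60), Eif2ak3 (-0.44) and Eif5a2 (-0.30), which did not pass the log2 ratio of -1 as deposited and did so relative to the median gene (-1.41, -1.25 and -1.11).

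The comparison with INPUT asks what the antibody selected from the fractions it was given. Here 21 of 62 translation factor genes were higher in IP and 1, Eif4e3, was lower, beside 20.5% and 14.6% of all 14404 genes. The median log2 ratio was 0.63 for the translation factors and 0.15 for all genes, and 48 of 62 lay above the median gene. When the groups were scaled to their summed means, 14 were higher and 2 lower, beside 11.9% and 23.2% of all genes. The 7 that no longer passed were Eif2ak1, Eif2b3, Eif2b5, Eif3a, Eif3b, Eif4e2 and Eif5, and Eif2b3, Eif2b5 and Eif3b did not pass relative to the median gene either. Eif4a2 was highest, with an INPUT mean of 3550.0 and a log2 ratio of 2.22. Eif2a, a factor able to bring initiator tRNA to the ribosome without GTP, followed with 775.5 in INPUT and 2.17. Eif2s1 (1.85), Eif2s2 (1.84) and the cap-binding protein Eif4e (1.78) came next. The 5 lowest were Eif4e3 (-1.31), Eif2ak2 (-0.72), Eef1d (-0.63), Eif3k (-0.54) and Eif4ebp2 (-0.49), and only Eif4e3 of these passed a log2 ratio of -1.

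Against TOTAL, 13 of the 62 translation factor genes were higher in IP and 13 were lower, beside 20.4% and 26.2% of all 14670 genes. When scaled to the summed means, 8 were higher and 16 lower, beside 16.4% and 29.9%. The 5 that no longer passed were Eif2ak4, Eif2b5, Eif3a, Eif3b and Eif5a2. The median was 0.21 for the translation factors and -0.03 for all genes, and 35 of 62 lay above the median gene. The 13 higher genes were Eif2a, Eif2ak4, Eif2b5, Eif3a, Eif3b, Eif3c, Eif4a2, Eif4ebp3, Eif4enif1, Eif4g1, Eif4g3, Eif5a2 and Eif5b. The 13 lower genes were Eef1b2, Eef1d, Eif1ax, Eif2ak2, Eif3f, Eif3g, Eif3h, Eif3i, Eif3k, Eif4a1, Eif4e3, Eif4ebp1 and Eif6. Eif4ebp3, which encodes an inhibitory eIF4E-binding protein, was highest (2.13), with means of 152.7 in TOTAL, 209.8 in INPUT, 161.1 in BO and 672.4 in IP. Another annotated protein coding gene on the same strand covers 67.3% of its exonic bases, so its count may hold reads of that gene. Eef1d was lowest (-2.48), with 2092.0 in TOTAL, 582.0 in INPUT, 110.7 in BO and 373.9 in IP.

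**Figure D1:**
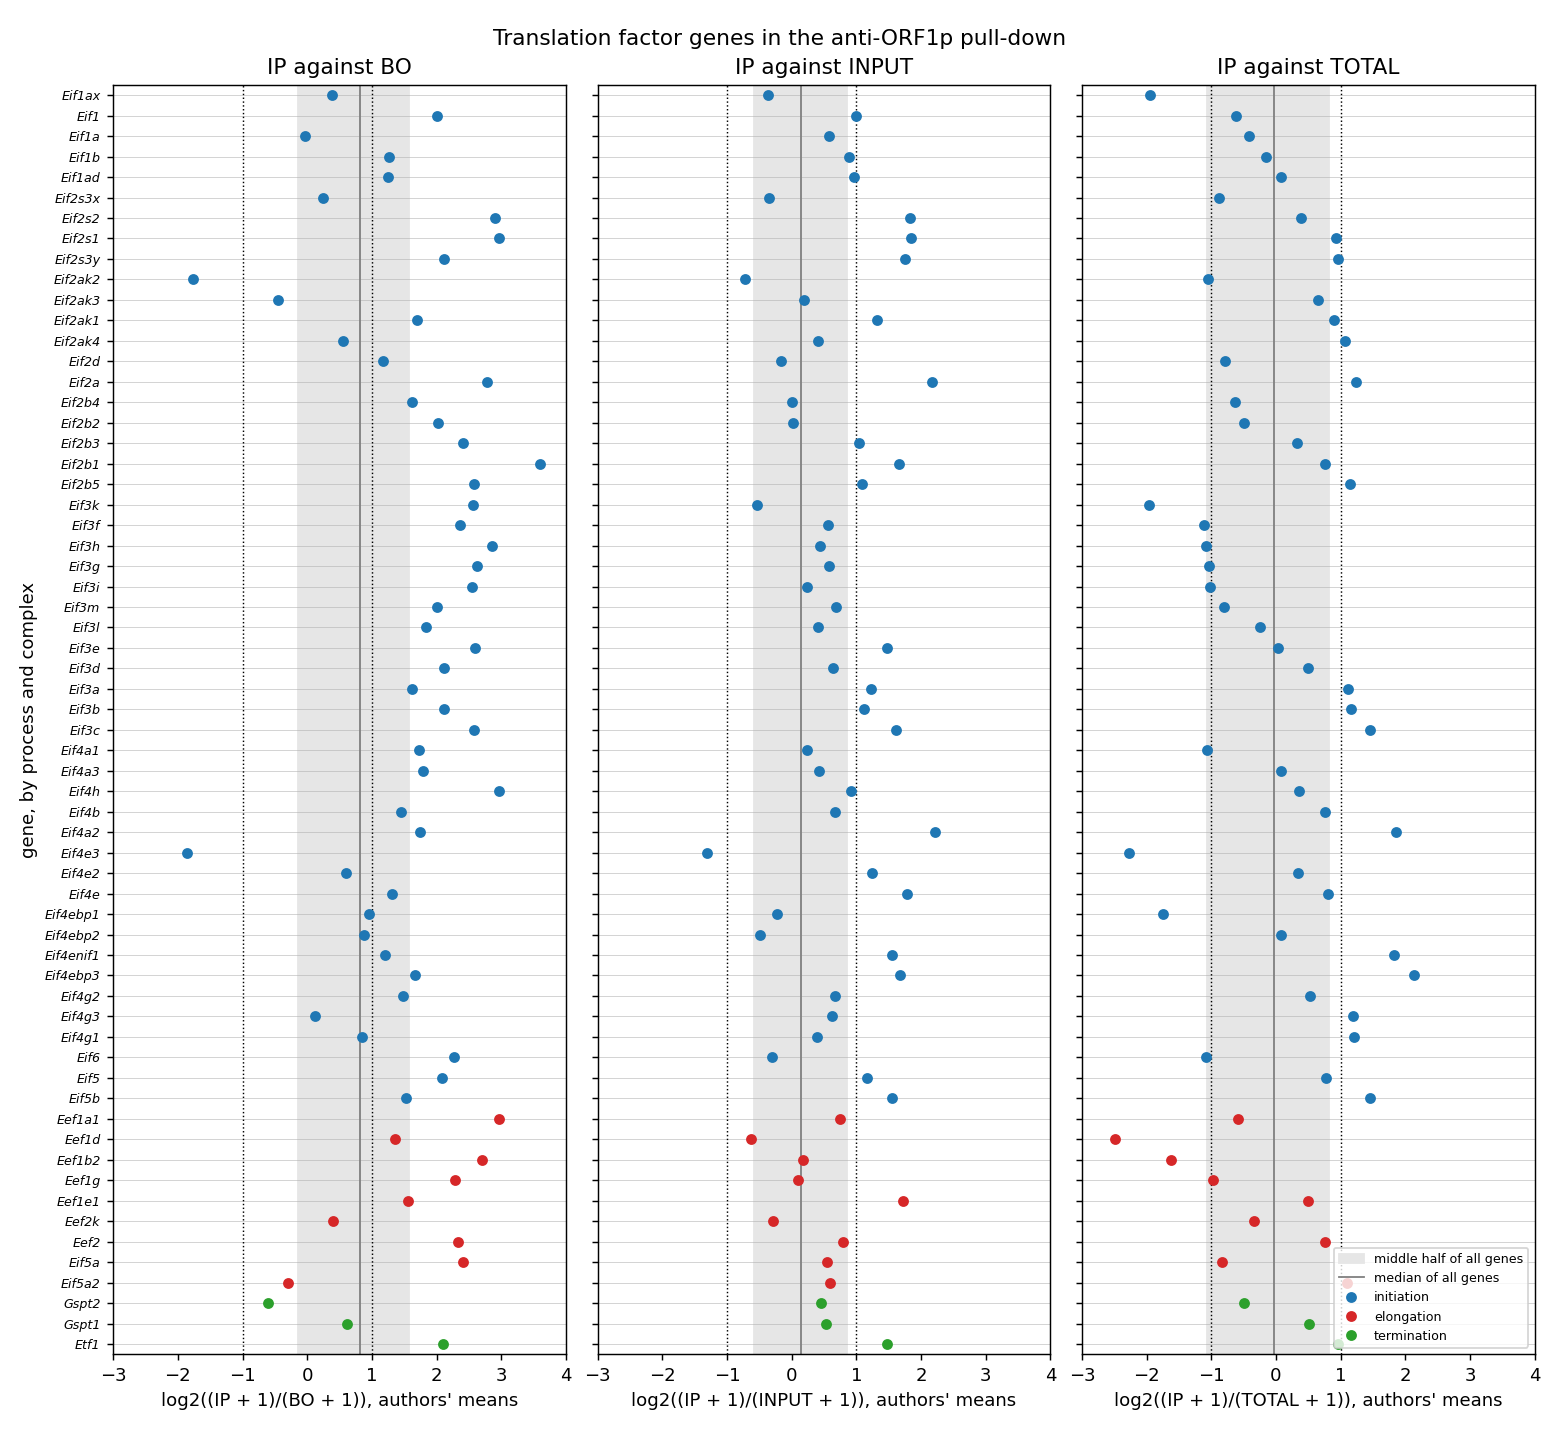
Log2 ratio of the authors' mean in IP over that in BO, INPUT and TOTAL (horizontal axes) for the 62 translation factor genes with a mean of at least 10 (rows), coloured by process; the grey band spans the lower to upper quartile of all genes, the grey line is their median, and the dotted lines are log2 ratios of -1 and 1. Against BO most points lie right of the median of all genes (0.81), and against TOTAL they spread from -2.48 for Eef1d to 2.13 for Eif4ebp3.

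The difference between the INPUT and TOTAL comparisons corresponds to the sucrose gradient. No table holds INPUT and TOTAL together, so this step was computed as the difference of the log2 ratios through IP and is given relative to the median gene. By this measure, 17 of 62 translation factor genes were lower in INPUT than in TOTAL and 0 were higher, beside 14.4% and 5.16% of all 14624 genes. The median was -0.52. The highest value was 0.99, for Eif4g1, the scaffold that links the cap-binding protein to eIF3, and the lowest was -1.69, for Eef1d. In the same way, 10 of 62 were higher and 15 lower in BO than in INPUT, beside 19.8% and 18.3% of all 14003 genes, with a median of -0.42. The mRNAs that the bare beads held most, relative to INPUT and to the median gene, were those of Eif2ak2 (1.62), Gspt2 (1.61) and Eif5a2 (1.46). Eif3k (-2.53), Eif6 (-2.01) and Eef1b2 (-1.96) were held least.

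**Figure D2:**
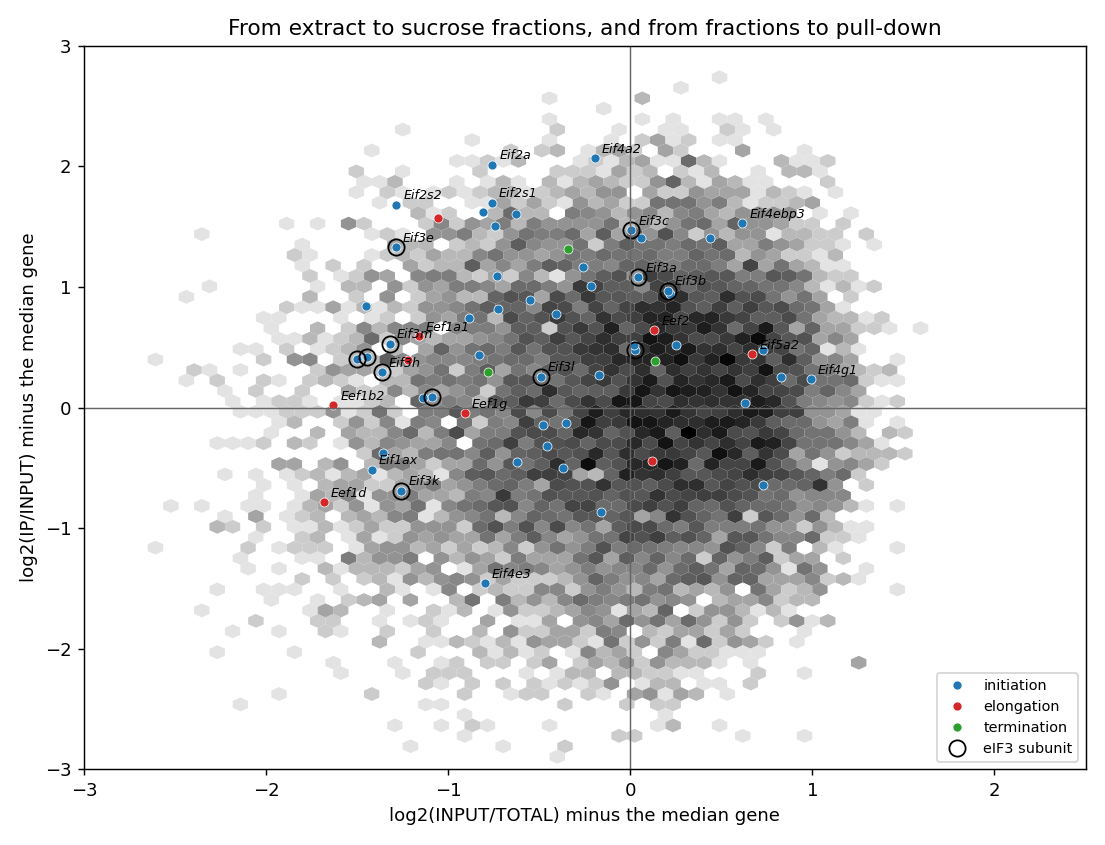
Log2 ratio of INPUT over TOTAL (horizontal axis) and of IP over INPUT (vertical axis), each minus the median gene, for translation factor genes (coloured by process, eIF3 subunits circled) over all genes (grey hexagons, darker for more genes on a log scale, drawn within the axis limits). No translation factor passes 1 on the horizontal axis, 17 lie below -1, and Eif4a2 and Eif2a lie at the top.

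The products of the 12 eIF3 subunit genes form a single complex, and their mRNAs differed from one another at each step. Against BO, 12 of 12 were higher in IP, with log2 ratios from 1.62 (Eif3a) to 2.86 (Eif3h) and a median of 2.45, beside 43.9% of all genes higher. Relative to the median gene the values were 0.81 to 2.05, and 11 of 12 were higher, all but Eif3a, beside 18.4%. Against TOTAL they divided, with 3 of 12 higher and 5 lower, beside 20.4% and 26.2% of all genes. Eif3c was higher in IP (5069.8 in TOTAL, 13942.4 in IP, log2 ratio 1.46), as were Eif3b (2571.1 and 5756.8, 1.16) and Eif3a (4812.3 and 10390.5, 1.11), of which only Eif3c passed with summed means. Eif3k was lower (1267.9 and 324.8, -1.96), as were Eif3f (-1.11), Eif3h (-1.09), Eif3g (-1.04) and Eif3i (-1.01), the last of which did not pass relative to the median gene. The subunits that also make up the eIF3 of budding yeast, encoded by Eif3a, Eif3b, Eif3c, Eif3g and Eif3i, were thus found on both sides. The ratios to TOTAL of Eif3d (0.49), Eif3e (0.03), Eif3l (-0.25) and Eif3m (-0.81) lay between -1 and 1.

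Much of this division was already present in INPUT. Relative to the median gene, the log2 ratio of INPUT over TOTAL was between 0.00 and 0.21 for Eif3a, Eif3b, Eif3c and Eif3d, -0.49 for Eif3l, and between -1.50 and -1.09 for the other 7. From INPUT to IP, Eif3c (1.62), Eif3e (1.48), Eif3a (1.23) and Eif3b (1.12) were higher, beside 20.5% of all genes, and 11 of 12 lay above the median gene. Eif3b did not pass relative to the median gene, and with summed means neither Eif3a nor Eif3b did. Eif3e had 3163.5 in TOTAL, 1162.8 in INPUT and 3228.0 in IP, so that its IP mean was close to that in TOTAL. Eif3k was the exception below the median gene (-0.54).

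**Figure D3:**
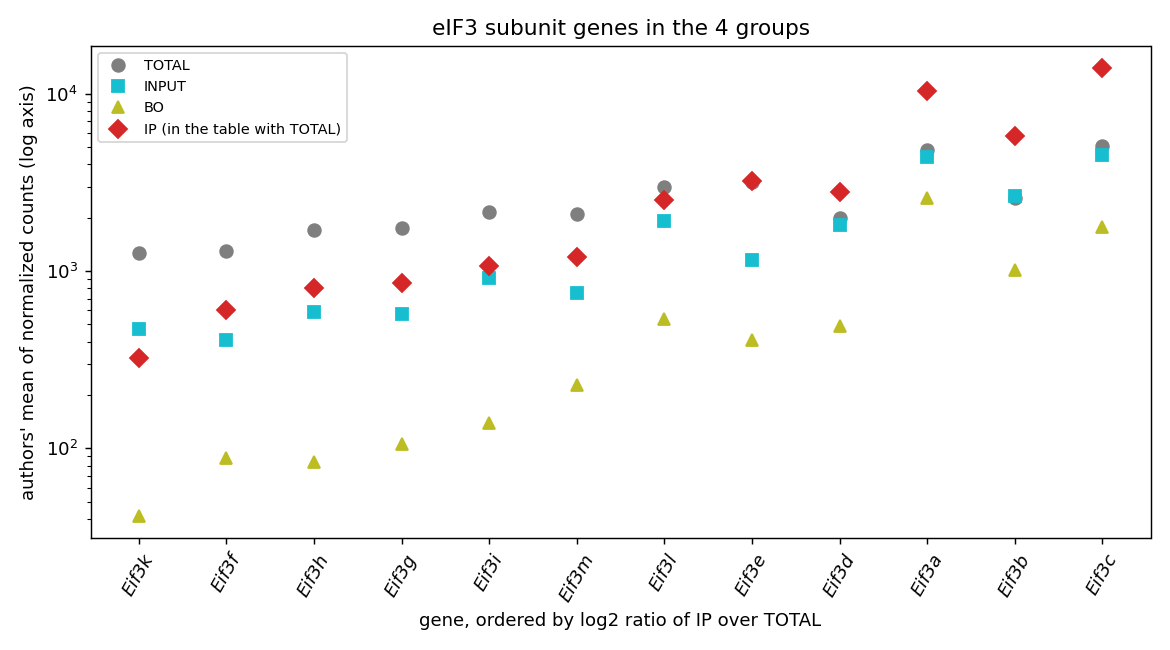
Authors' mean of normalized counts (vertical log axis) of the 12 eIF3 subunit genes in TOTAL, INPUT, BO and IP, ordered along the horizontal axis by the log2 ratio of IP over TOTAL; there is 1 mean per group and no error bar. The BO symbol is the lowest for all 12 genes, and IP lies above TOTAL by a log2 ratio over 1 for Eif3a, Eif3b and Eif3c.

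Of the 4 eIF2 subunit genes, 3 passed a log2 ratio of 1 against both BO and INPUT, and 0 passed it against TOTAL, where the shares of all genes higher were 43.9%, 20.5% and 20.4%. Eif2s1 had means of 2271.4 in TOTAL, 1202.7 in INPUT, 421.6 in BO and 4314.9 in IP, and log2 ratios of 0.93, 1.85 and 2.97 to these groups, respectively. Eif2s2 gave 0.39, 1.84 and 2.91. The gamma subunit differed between its X- and Y-linked genes. Eif2s3y had 1883.6 in TOTAL, 1095.4 in INPUT, 649.7 in BO and 3671.0 in IP, with log2 ratios of 0.96, 1.75 and 2.11. Eif2s3x had 369.1, 256.1, 129.1 and 199.6, with -0.88, -0.35 and 0.24. The Y-linked gene had the higher mean in all 4 groups, also per kilobase (604.9 against 101.2 in TOTAL), and the higher log2 ratio in each of the 3 comparisons. Of the 5 eIF2B subunits, 5 were higher than in BO (1.62 for Eif2b4 to 3.59 for Eif2b1) and 3 were higher than in INPUT, namely Eif2b1 (1.66), Eif2b5 (1.09) and Eif2b3 (1.05). Eif2b2 (0.03) and Eif2b4 (0.01) were near 0 against INPUT. Against TOTAL only Eif2b5 (1.15) passed, and the others were at 0.75 (Eif2b1), 0.33 (Eif2b3), -0.49 (Eif2b2) and -0.64 (Eif2b4). Relative to the median gene, 4 of 5 were higher than in BO, beside 18.4% of all genes, and 1, Eif2b1, was higher than in INPUT, beside 16.5%.

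The 4 kinases of eIF2 did not share a pattern. Eif2ak1, which encodes the heme-regulated kinase HRI, was higher in IP than in BO (1.70) and INPUT (1.31), with 1311.8 in TOTAL, 979.3 in INPUT, 573.3 in BO and 2434.8 in IP, but did not pass against BO relative to the median gene (0.89) or against INPUT with summed means. Eif2ak2 (PKR, chr17:78852564-78882573, minus strand) was lower in IP than in BO (-1.77) and TOTAL (-1.04), with 778.9, 622.8, 985.7 and 377.2. Eif2ak2 had its highest mean in BO. Eif2ak3, which encodes the endoplasmic reticulum kinase PERK, gave -0.44, 0.19 and 0.66 against BO, INPUT and TOTAL. Eif2ak4, which encodes the amino acid sensor GCN2, gave 0.56, 0.40 and 1.06. Gcn1l1, the partner of GCN2, gave 1.43, 0.38 and 1.65. Atf4, the transcription factor translated when eIF2 is phosphorylated, gave 0.34, 0.58 and -0.80.

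Among the factors that act at the cap, the contrast between Eif4a1 and Eif4a2 was wide against TOTAL. Eif4a1 had means of 8119.3 in TOTAL, 3311.6 in INPUT, 897.4 in BO and 3875.9 in IP. Eif4a2 had 4527.6, 3550.0, 3758.8 and 16421.3. Per kilobase, Eif4a1 was the higher in TOTAL (2563.7 against 1671.9) and Eif4a2 in IP (6064.0 against 1223.8). The log2 ratio to TOTAL was -1.07 for Eif4a1 and 1.86 for Eif4a2, and that to INPUT was 0.24 and 2.22. Against BO they were close (1.73 and 1.74). The log2 ratio of BO over INPUT, relative to the median gene, was -0.93 for Eif4a1 and 1.04 for Eif4a2. Small nucleolar RNA genes lie within the annotated exons of both, and most of the sequence of Eif4a1 is shared with other annotated genes, as stated above. Eif4a3, which encodes the helicase of the exon junction complex, was between both against TOTAL (0.08).

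Of the eIF4G scaffolds, Eif4g2 and Eif4g1 ranked 4 and 12 per kilobase in TOTAL, and Eif4g3 ranked 45. Eif4g2, whose product initiates without binding the cap, had 24699.0 in TOTAL, 22398.8 in INPUT, 9732.9 in BO and 35677.2 in IP, and ratios of 0.53, 0.67 and 1.49 to these groups. Eif4g1 and Eif4g3 were higher than in TOTAL (1.21 and 1.20) with ratios to INPUT of 0.39 and 0.63 and to BO of 0.85 and 0.13. Of the cap-binding proteins, Eif4e (1.78) and Eif4e2 (760.1 in INPUT and 1792.1 in IP) were higher than in INPUT. The log2 ratio of Eif4e2 to BO was 0.60. Eif4e3 was lower than in each of the 3 groups, with 280.2 in TOTAL, 143.7 in INPUT, 161.3 in BO and 57.2 in IP. Another protein coding gene overlaps 14.8% of the exonic bases of Eif4e3 on the same strand. The eIF4E-binding proteins Eif4ebp1 (-1.75 against TOTAL), Eif4ebp2 (0.07) and Eif4ebp3 (2.13) spanned most of the range of all translation factors, and Eif4enif1 was at 1.83. Eif5, which activates the GTPase of eIF2, and Eif5b, which joins the ribosomal subunits, were higher than in INPUT (1.16 and 1.56). Eif6, which keeps the subunits apart, was higher than in BO (2.27) and lower than in TOTAL (-1.08).

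The genes of eIF1 and eIF1A, which help to select the start codon, and the related Eif1ad had ratios to TOTAL between -1.95 and 0.08. Eif1ax (X-linked) was at -1.95, with 2722.7 in TOTAL and 705.4 in IP. Its autosomal paralog Eif1a was at -0.41, Eif1 at -0.62 and Eif1b at -0.16. Of the 5 genes in this group, 0 passed a log2 ratio of 1 against INPUT, beside 20.5% of all genes, and Eif1 (just under 1), Eif1ad (0.97) and Eif1b (0.89) came close.

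**Figure D4:**
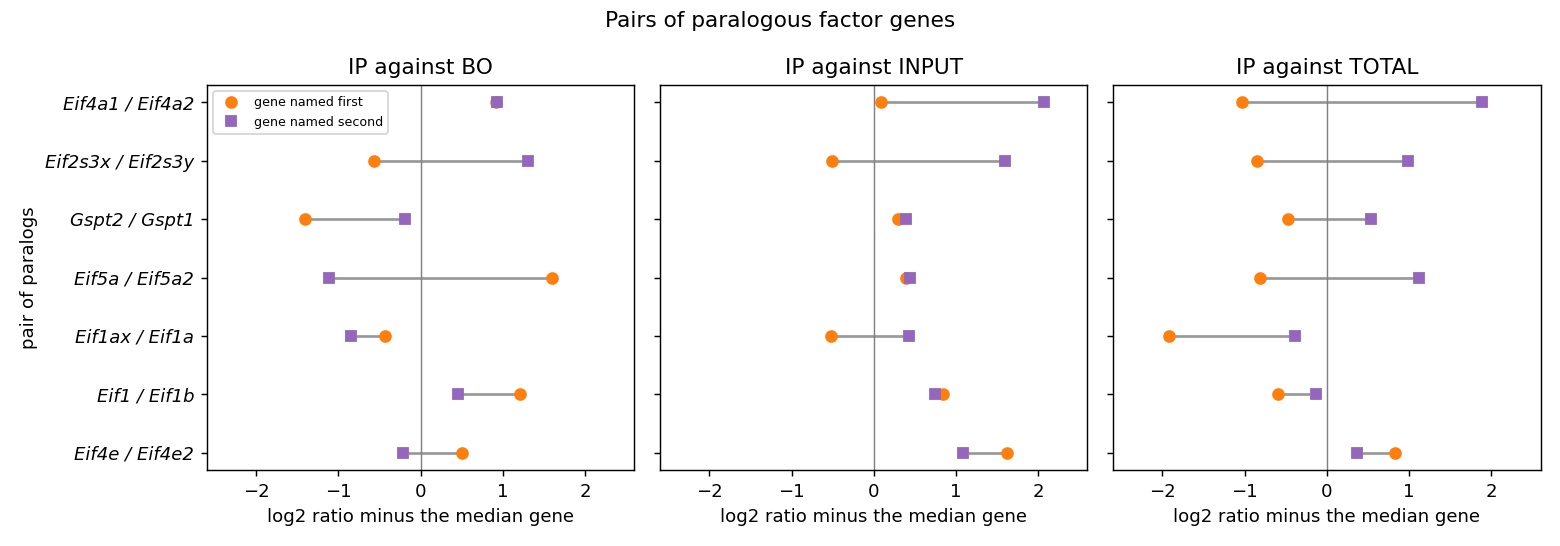
Log2 ratio of IP over BO, INPUT and TOTAL minus the median gene (horizontal axes) for 7 pairs of paralogs (rows); the circle is the gene named first and the square the gene named second. The pair of Eif4a1 and Eif4a2 is far apart against INPUT and TOTAL and together against BO, whereas Eif5a and Eif5a2 are together against INPUT and far apart against BO.

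The 3 X-linked translation factor genes, Eif1ax, Eif2s3x and Gspt2, were each below their autosomal or Y-linked paralog in the ratio to TOTAL and in the ratio to INPUT. For Gspt2 and Gspt1 the ratios to INPUT were close (0.45 and 0.54) and carry no error. Against BO this held for Eif2s3x and Gspt2 and not for Eif1ax, which was at 0.38 where Eif1a was at -0.04. The sex chromosomes are silenced in spermatocytes at pachytene, which is background and not a result of these data. Over all X-linked protein coding genes compared with TOTAL, the median log2 ratio was -0.30 (n = 575 genes), against 0.00 for autosomal genes (n = 13487) and 1.82 for the 8 genes on the Y chromosome. Eif1ax, Eif2s3x and Gspt2 (-0.50) lay below the X-linked median, with Gspt2 the closest to it. Eif2s3y (0.96) lay below the median of the Y-linked genes, to which it belongs. The spermatocyte markers moved with the contrast between the X-linked factor genes and their paralogs, and their part in it was not tested.

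Several mRNAs of elongation factors were low in INPUT. Of the 9 with a mean of at least 10, 5 were lower in INPUT than in TOTAL by more than a log2 ratio of 1 relative to the median gene, beside 14.4% of all genes. Eef1a1 (chr9:78478449-78489151, minus strand) had 43794.2 in TOTAL, 17554.8 in INPUT, 2865.2 in BO and 29192.3 in IP, with log2 ratios of -0.59, 0.74 and 2.97. Eef2 (chr10:81176631-81182498, plus strand) had 21779.7, 21329.6, 5609.2 and 36915.3, with 0.76, 0.79 and 2.33. Against INPUT both lay above the median gene, and against TOTAL only Eef2 of both did. The exchange factor subunits of eEF1B (Eef1b2, Eef1d and Eef1g) were higher than in BO (1.36 to 2.70), at -0.63 to 0.17 against INPUT, and at -2.48 to -0.97 against TOTAL.

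Eef1e1, which encodes a scaffold protein of the multi-synthetase complex rather than an elongation factor in the strict sense, was higher than in BO (1.56) and INPUT (1.72). Eef2k, the kinase that inhibits eEF2, did not pass in any comparison (0.40, -0.29 and -0.34 against BO, INPUT and TOTAL). Eif5a and Eif5a2 encode the hypusine-containing factor that relieves ribosome stalling. Eif5a had 5154.5 in TOTAL, 1978.0 in INPUT, 413.5 in BO and 2883.1 in IP, and Eif5a2 had 1431.0, 2037.6, 2891.8 and 3064.2. Eif5a was higher than in BO (2.41) and at -0.84 against TOTAL, whereas Eif5a2 was at -0.30 against BO and higher than in TOTAL (1.10). As normalized together with BO, the IP mean of Eif5a2 was 2345.8, below its BO mean. Their ratios to INPUT were close (0.55 and 0.59).

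Among the termination factors, Etf1 was higher than in BO (2.11) and INPUT (1.47), with 5921.3 in TOTAL, 4183.4 in INPUT, 2056.1 in BO and 11544.4 in IP. Gspt1 had 3038.8, 2977.5, 2151.5 and 4326.4, and Gspt2 had 567.9, 294.8, 466.4 and 401.1. Gspt1 gave 0.62, 0.54 and 0.51 against BO, INPUT and TOTAL, and Gspt2 gave -0.60, 0.45 and -0.50. Neither passed a log2 ratio of 1 or -1 as deposited, and against INPUT their values lay close together. Gspt2 passed -1 against BO relative to the median gene (-1.41).

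The 9 translation factors long known to be encoded by TOP mRNAs (Eef1a1, Eef1b2, Eef1d, Eef1g, Eef2, Eif3e, Eif3f, Eif3h and Eif4b), of which 5 act in elongation, were set beside the other 53. Against BO, 9 of 9 were higher, with a median of 2.36, beside 37 of 53 and 1.67, and 43.9% of all genes were higher. Relative to the median gene the counts were 7 of 9 and 22 of 53, beside 18.4%. Against INPUT the medians were 0.56 and 0.63. Only Eif3e of the 9 TOP mRNAs passed a log2 ratio of 1 (1.48), beside 20 of the other 53 and 20.5% of all genes. Against TOTAL, 0 of the 9 were higher and 4 were lower (Eef1b2, Eef1d, Eif3f and Eif3h), beside 20.4% and 26.2% of all genes, with a median of -0.97 beside 0.35 for the other factors. In the gradient step, 6 of 9 were lower in INPUT than in TOTAL, beside 11 of the other 53 and 14.4% of all genes. The mRNAs of cytosolic ribosomal proteins, the main class of TOP mRNAs, had medians of 2.52, 0.52 and -1.70 against BO, INPUT and TOTAL. Against BO, 76 of 77 were higher and 0 lower. Against INPUT 19 of 78 were higher and 2 lower, beside 20.5% and 14.6% of all genes. Against TOTAL 1 of 78 was higher and 63 were lower, beside 20.4% and 26.2%. The length of the TOP and ribosomal protein mRNAs was not taken into account here. Protein coding genes with a longest coding transcript below 1500 nt had a median of -1.49 against TOTAL.

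Other genes of translation gave different values, and which of them have TOP mRNAs was not assessed. The 20 cytosolic aminoacyl-tRNA synthetases, which charge tRNAs with amino acids, had medians of 2.00, 0.92 and 0.74 against BO, INPUT and TOTAL. Against BO, 20 of 20 were higher, beside 43.9% of all genes, and relative to the median gene 14 of 20, beside 18.4%. Against TOTAL, 6 were higher and 1 lower, beside 20.4% and 26.2% of all genes. Aars (1.95, 1.09 and 1.47), Dars (3.22, 1.90 and 1.41) and Eprs (1.81, 1.34 and 1.53) passed in each comparison as deposited. Against INPUT, Aars did not pass relative to the median gene, and neither Aars nor Eprs did with summed means. The 11 mitochondrial translation factors had medians of 1.42, 0.24 and -0.35. Among 29 other cytosolic translation genes the medians were 1.36, 0.75 and 0.54, and 11 were higher and 4 lower than in TOTAL, beside the same 20.4% and 26.2%. Pabpc1, the poly(A)-binding protein, had 3814.0 in TOTAL and 15266.8 in IP, with log2 ratios of 3.24, 2.42 and 2.00. The ribosome recycling and rescue factors Abce1 (1.94, 1.58 and 1.53) and Hbs1l (1.97, 1.55 and 1.37) were also higher in each comparison, while Pelo, the rescue partner of Hbs1l, passed only against BO (1.36, 0.55 and -0.05), and not relative to the median gene. The helicases Ddx3x (-0.05, -0.06 and -0.44) and Ddx3y (-0.69, 0.21 and 0.08) did not pass in any as deposited, and Ddx3y passed -1 against BO relative to the median gene.

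The ratios were then compared with transcript length. Across the 62 translation factors, the Pearson correlation of the log2 ratio with log2 length of the longest annotated transcript was -0.37 against BO, 0.06 against INPUT and 0.35 against TOTAL. It was -0.36, 0.08 and 0.45 across all protein coding genes. Over the 12 eIF3 subunits the value against TOTAL was 0.72. These are descriptions across genes, which share libraries and are not replicates, and no p-value belongs to them. With the median transcript in place of the longest, the value against TOTAL was 0.12 for the 62 factors and 0.35 for the eIF3 subunits.

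The translation factors were also set beside protein coding genes of like length. Against INPUT, the number above the median of their length class was 8 of 9 with a longest coding transcript below 1500 nt, 10 of 16 from 1500 to below 2500 nt, 18 of 22 from 2500 to below 4000 nt and 11 of 15 at 4000 nt or more. Against TOTAL the numbers were 8 of 9, 7 of 16, 16 of 22 and 11 of 15. The shortest factors had a median of -0.84 against TOTAL where coding genes below 1500 nt had -1.49. Eef1d (-2.48) and Eif4e3 (-2.27) lay below the lower quartile of coding genes from 2500 to below 4000 nt (-0.82), and Eif1ax (-1.95) below that of the longest class (-0.26). Eif4ebp3 (2.13) lay above the upper quartile of the shortest class (-0.54). Also below the lower quartile of their class were Eef1b2, Eef2k, Eif2ak2, Eif2s3x, Eif3f and Eif4ebp1. Also above the upper quartile of their class were Eif1b, Eif2a, Eif2b1, Eif2b5, Eif2s1, Eif2s3y, Eif3b, Eif3c, Eif3d, Eif4a2, Eif4enif1, Eif4g1, Eif4g3, Eif5b and Etf1. By definition a quartile leaves a set share of all coding genes beyond it, and these lists were not compared with that share.

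**Figure D5:**
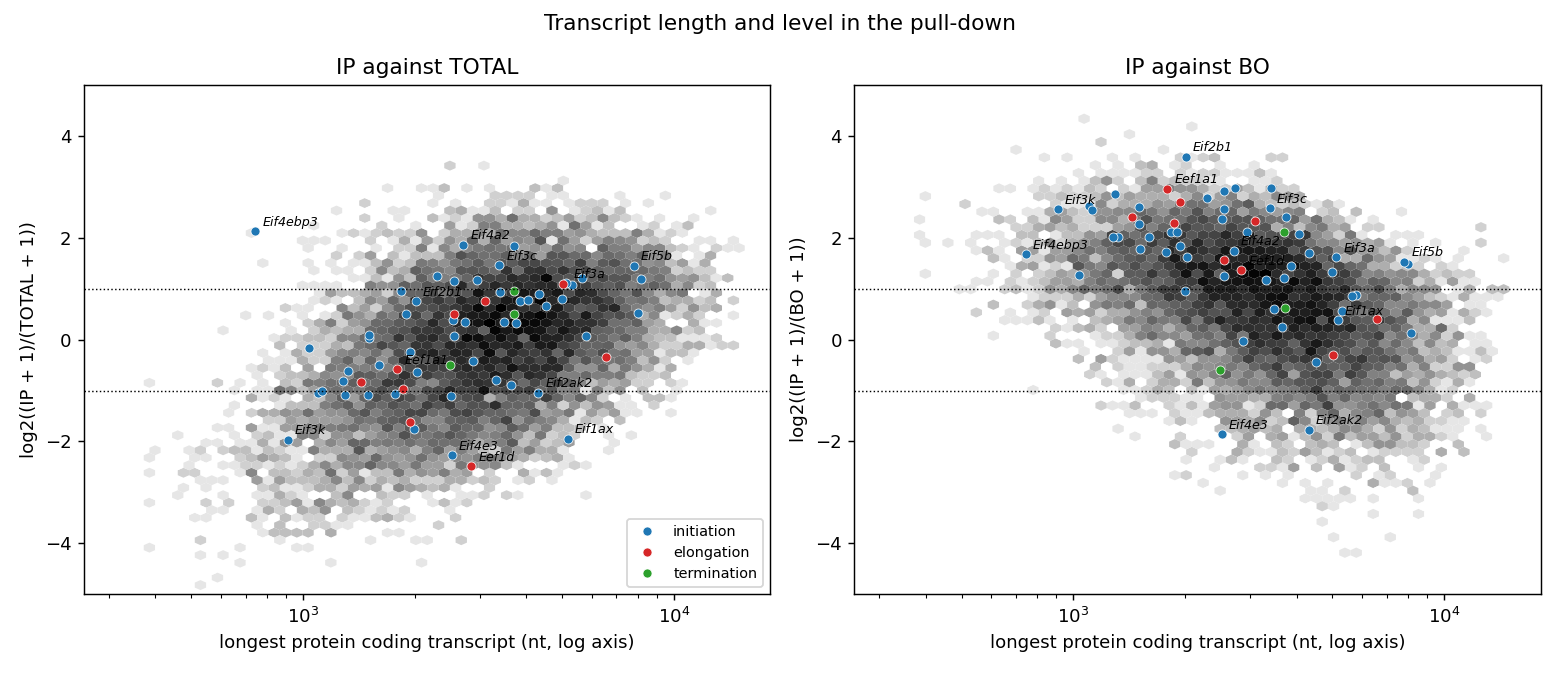
Log2 ratio of IP over TOTAL (left) and over BO (right) against the length of the longest protein coding transcript (nt, log axis) for translation factor genes (coloured by process) over protein coding genes (grey hexagons, darker for more genes on a log scale); the dotted lines are log2 ratios of -1 and 1. Ratios to TOTAL are higher for longer transcripts and ratios to BO lower, with Eif4ebp3, Eef1d, Eif4e3 and Eif1ax away from the bulk.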

How the data were processed

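The 12 RNA-seq libraries were grouped by their labels, 3 in each of TOTAL, INPUT, BO and IP. The authors prepared rRNA-depleted stranded libraries, read as 75 nt single ends and mapped to mm10 with STAR 2.6.0c. For genes, the deposited signal is the authors' mean of DESeq2 1.24.0 normalized counts per group, in 1 table for each comparison with IP, each normalized separately. These tables also hold the authors' fold changes, errors and p-values, which were not used. The gene annotation is not given in the sources used here. For repeats, the deposited signal is an upper quartile normalized count per subfamily and library, in which 99.9% to 100.0% of values were whole multiples of 1 read within a tolerance of 0.1.

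Log2 ratios used a pseudocount of 1 and a mean of at least 10 over both groups, and were called past 1 or -1. They understate changes of low genes. Without values per library, no spread, interval or test was computed for genes. The ratio step was tested on simulated data. Of 20985 gene rows, 20707 matched GENCODE M21, directly or through older symbols. Python 3.11.15, pandas 2.3.3 and Biopython 1.88 were used. Named genes were the 5 highest and 5 lowest of each comparison and a fixed list of factors, in full where paralogs or subunits differ. The translation factors, the lists and the comparisons were chosen with earlier results of these data known. Pseudocounts of 0.1 and 10, the mean filter left out or raised to 100, 3 scalings, other transcript lengths and deposited means not joined through IP were tried as alternatives.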

Additional observations from a re-analysis of the deposited data

How the results depend on the processing

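No paired analysis was possible because the gene tables hold 1 mean per group, and for the same reason no library could be left out, BO replicate 3 included. Pseudocounts of 0.1 and 10, leaving out the mean filter and raising it to 100 changed none of the 48, 22 and 26 translation factors called against BO, INPUT and TOTAL. Scaling mattered most against BO, where centring on the median gene or on the upper quartile gave 29 higher and 5 lower in place of 46 and 2. Both settings shift this comparison by 0.81 on the log2 scale. Against INPUT, scaling to the upper quartile kept 16 of the 22 calls and scaling to the summed means kept 15. Each of these settings gave 2 lower in place of 1. Against TOTAL the summed means kept 21 of the 26 calls and gave 8 higher in place of 13. None of the called translation factors changed sign under any of these settings. For INPUT over TOTAL, deposited means not joined through IP and a mean of at least 100 each gave 0 higher and 17 lower, as reported. For BO over INPUT, they gave 10 higher and 15 lower, as reported, and 7 higher and 19 lower. The correlation with length against BO, INPUT and TOTAL was -0.33, -0.014 and 0.12 with the median transcript, turning sign against INPUT, and -0.45, 0.017 and 0.37 with the longest protein coding transcript, which was chosen after seeing the data. The cause was not tested. Against BO, INPUT and TOTAL, the shares of protein coding genes called higher were 44.1%, 20.5% and 20.6%, and lower 10.9%, 14.3% and 25.7%, a background also added after seeing the data. Without values per library, no precision was computed for any single ratio, and the authors' own errors were not used.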
